A study of Mus musculus with 19 samples.

Results

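The genes described here are the matrix metalloproteinases (Mmp), the ADAM and ADAMTS metalloproteinases and the tissue inhibitors of metalloproteinases (Timp) of the mouse suprarenal abdominal aorta (SRA). They were taken by symbol, as rows named Mmp, Adam, Adamts or Timp followed by a digit. Of 55 such rows, 47 reached 10 normalized counts in 4 or more of the 19 mice: 13 Mmp, 14 Adam, 16 Adamts and 4 Timp genes, among 14845 genes that passed the same filter. Bulk RNA-Seq was made 24 h after the start of an infusion of saline or angiotensin II (Ang II) in male mice. The labels give a dose range from 500 to 1000 ng/kg/min, and the study's methods give 1000 ng/kg/min for the RNA-Seq mice. The groups were 5 saline-infused and 5 Ang II-treated IKKβ+/+ mice, and 4 saline-infused and 5 Ang II-treated IKKβ-/- mice. All of them lacked ApoE, carried the SMA-CreERT2 transgene and received tamoxifen at 8 weeks of age. The IKKβ-/- mice in addition carried IkkβFlox/Flox alleles, recombined by a Cre that is driven by the smooth muscle actin promoter, so other cells of the wall kept the gene. RNA came from the whole SRA, in which fewer cells of a type and less RNA per cell cannot be told apart. Mice are named by X and their number.

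Metalloproteinases cut proteins with the help of a zinc ion. Most Mmp enzymes are made as inactive precursors and cut collagens, elastin and other matrix proteins once activated. ADAM proteins sit in the membrane and release the outer parts of cytokines, growth factors and receptors, although some members lack the catalytic site. ADAMTS enzymes are secreted, and different members cut hyalectans such as versican and aggrecan, trim procollagens or act on other matrix proteins. Timp proteins bind and block these enzymes. In the aorta, loss of elastin and collagen through such enzymes is a known feature of aneurysm.

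Each mouse had 11382573 to 19906694 reads on genes. Ikbkb, which encodes IKKβ and was the targeted gene, had 673 ± 78.6 normalized counts (SD, n = 5) with saline and 726 ± 46.3 (SD, n = 5) with Ang II in IKKβ+/+ mice, and 515 ± 74.3 (SD, n = 4) and 548 ± 87.9 (SD, n = 5) in IKKβ-/- mice. The saline-infused groups did not overlap (594 to 791 against 439 to 586), nor did the Ang II-treated groups (685 to 779 against 430 to 672). Smooth muscle markers had the highest sums of the marker lists, from 295611 to 620371 normalized counts per mouse over 6 genes. The sum of the smooth muscle markers was 318120 to 428900 in saline-infused and 446859 to 620371 in Ang II-treated IKKβ+/+ mice. Adipocyte markers summed to 158.5 to 611 in saline-infused and 1195 to 24351 in Ang II-treated IKKβ-/- mice, with the highest sums in X2385 and X2384 (20143). Mouse X2356 had the highest sum of neuronal and glial markers, 4454 against 1226 in the next mouse. The labels name no batch, and every group has its own run of mouse numbers, so that batch and group cannot be told apart. P-values measure the spread between these mice.

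Levels of different genes were compared per kb of exon, as the mean over 19 mice of the normalized count divided by the exon length. The inhibitors Timp2 (3766 normalized counts per kb) and Timp3 (3367 per kb) were the most abundant of the 47 genes. They were followed by Mmp3, a stromelysin that cuts many matrix proteins and activates other proenzymes (1419 per kb), Adamts1, a versican-cleaving enzyme (1160 per kb), and the gelatinase Mmp2 (921.7 per kb). Adamts2, which trims procollagens, had 792.7 per kb and Timp1 740.4 per kb. At the other end were Adamts20 (1.272 per kb), Adamts16 (1.991 per kb) and Adamts17 (2.251 per kb). Adamts4 (10.8 per kb) and Adam12 (8.394 per kb) lay in the lower part of the range, so their changes rest on far fewer reads than those of Adamts1. The collagenase genes Mmp8 and Mmp13 were below the filter, with at most 37.9 and 11.2 normalized counts. The other rows below it, Adam3, Adam21, Adam32, Adamts18, Mmp24 and Mmp25, reached at most 19.3.

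**Figure D1:**
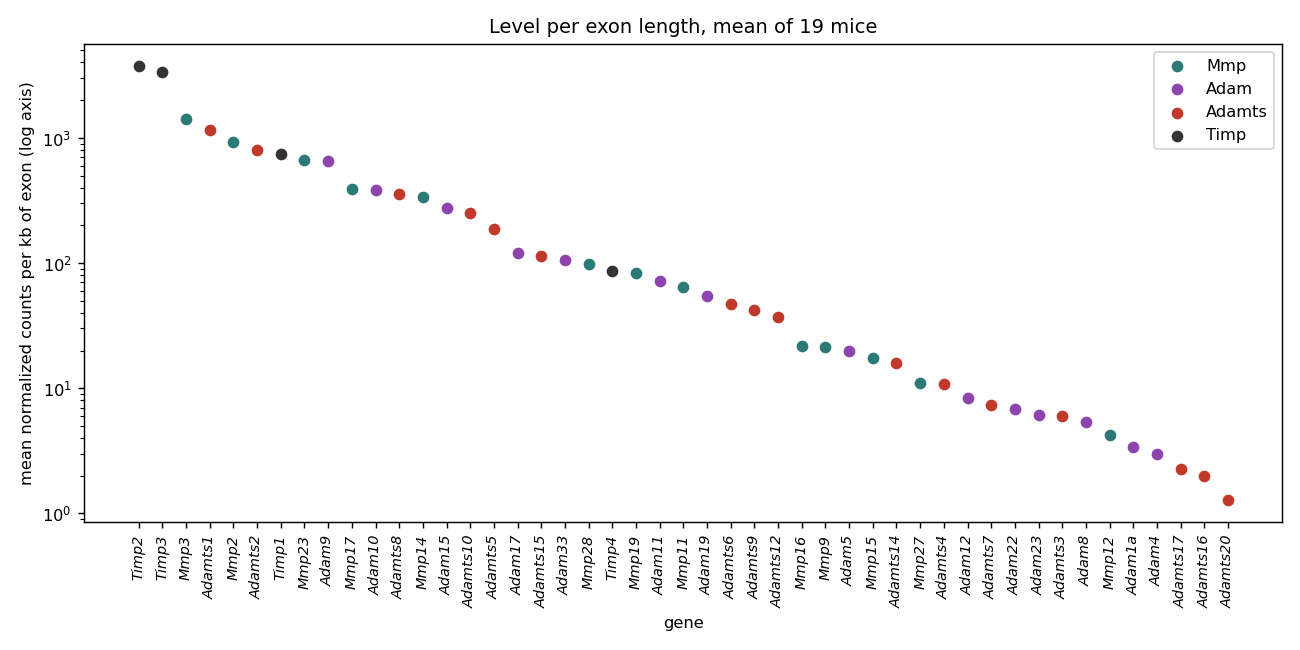
Mean normalized counts per kb of exon over 19 mice (vertical log axis) for each of the 47 genes, coloured by family and sorted by level. Timp2 (3766) and Timp3 (3367) lie above all proteinases, and Adamts20 (1.272) is lowest.

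Promoter sequences from RefSeq (GRCm38.p6) were matched by symbol for 28 of the 47 genes, with 32 start sites. They are shown for 4 genes on which the results below turn: Mmp3, which rose with Ang II in both genotypes, Timp1, which rose in IKKβ+/+ mice, Adamts1, which moved in opposite directions in the 2 genotypes, and Adam19, which was lower in IKKβ-/- mice. Each run is the 250 bases before the start site, 5′ to 3′ on the strand of the gene, and capitals mark motif matches. The windows are chr9:7445572-7445821 (plus strand) for Mmp3, chrX:20869916-20870165 (plus) for Timp1, chr16:85803114-85803363 (minus) for Adamts1 and chr11:46055734-46055983 (plus), 1 of 3 starts, for Adam19.
Mmp3: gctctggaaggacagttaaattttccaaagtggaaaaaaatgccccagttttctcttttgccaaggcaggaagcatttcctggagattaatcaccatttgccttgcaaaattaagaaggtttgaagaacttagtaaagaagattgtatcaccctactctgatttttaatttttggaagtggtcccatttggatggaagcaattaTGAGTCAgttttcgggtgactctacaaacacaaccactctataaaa
Timp1: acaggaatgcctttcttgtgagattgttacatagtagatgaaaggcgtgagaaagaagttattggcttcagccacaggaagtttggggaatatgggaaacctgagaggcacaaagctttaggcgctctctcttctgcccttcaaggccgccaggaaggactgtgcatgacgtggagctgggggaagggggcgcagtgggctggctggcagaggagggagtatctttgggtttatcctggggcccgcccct
Adamts1: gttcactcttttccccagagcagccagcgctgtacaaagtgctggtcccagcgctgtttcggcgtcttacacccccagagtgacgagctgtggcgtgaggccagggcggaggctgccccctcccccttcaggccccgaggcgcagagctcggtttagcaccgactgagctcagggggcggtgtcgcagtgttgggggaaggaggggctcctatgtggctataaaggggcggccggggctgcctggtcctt
Adam19: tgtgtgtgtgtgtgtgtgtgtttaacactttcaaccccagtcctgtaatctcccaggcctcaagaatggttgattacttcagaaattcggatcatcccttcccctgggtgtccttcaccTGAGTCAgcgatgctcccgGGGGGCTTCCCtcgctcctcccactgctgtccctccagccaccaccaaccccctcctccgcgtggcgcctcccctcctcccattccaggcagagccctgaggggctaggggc

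Both strands were searched for the AP-1 motif TGANTCA, the cyclic AMP response element, the NF-κB consensus and the CArG box. Matches may overlap each other, as the NF-κB pair of Adam19 does. The Mmp3 window holds an AP-1 match that begins 46 bases before the start, and the Adam19 window holds an AP-1 match at 131 bases and NF-κB matches at 112 and 111 bases before it. The windows of Timp1 and Adamts1, and those of the other Adam19 starts, hold none of these letters. AP-1 was found in 3 of the 32 windows of these genes (9.38%) and in 6.75% of all 32851 windows, and the NF-κB consensus in 4 of 32 (12.5%) and 7.25%. The response element and the CArG box were in 0 of the 32 windows, against 1.55% and 1.47% of all windows. A match describes letters and is not a measured site.

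Ang II against saline in IKKβ+/+ mice asked what the infusion did to these genes within 24 h in a wall with intact IKKβ. Of the 47 genes, 6 rose: the shedding enzyme Adam12, the inhibitors Timp1 and Timp4, the versican-cleaving enzymes Adamts1 and Adamts9, and the stromelysin Mmp3. A further 4 fell: the sheddases Adam10, Adam15 and Adam17 and the inhibitor Timp2. A call required a fold change above 1.2 with an adjusted p below 0.1 (limma, over 14845 genes). Of all genes 4.33% were called higher and 4.33% lower, against 12.8% and 8.51% of these 47. The median log2 fold change of the 47 genes was -0.27, beside 0.01 for all genes tested, and 27 of them were below 0. The groups did not overlap for 8 of the 47, where 8.42% of all genes did not.

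**Figure D2:**
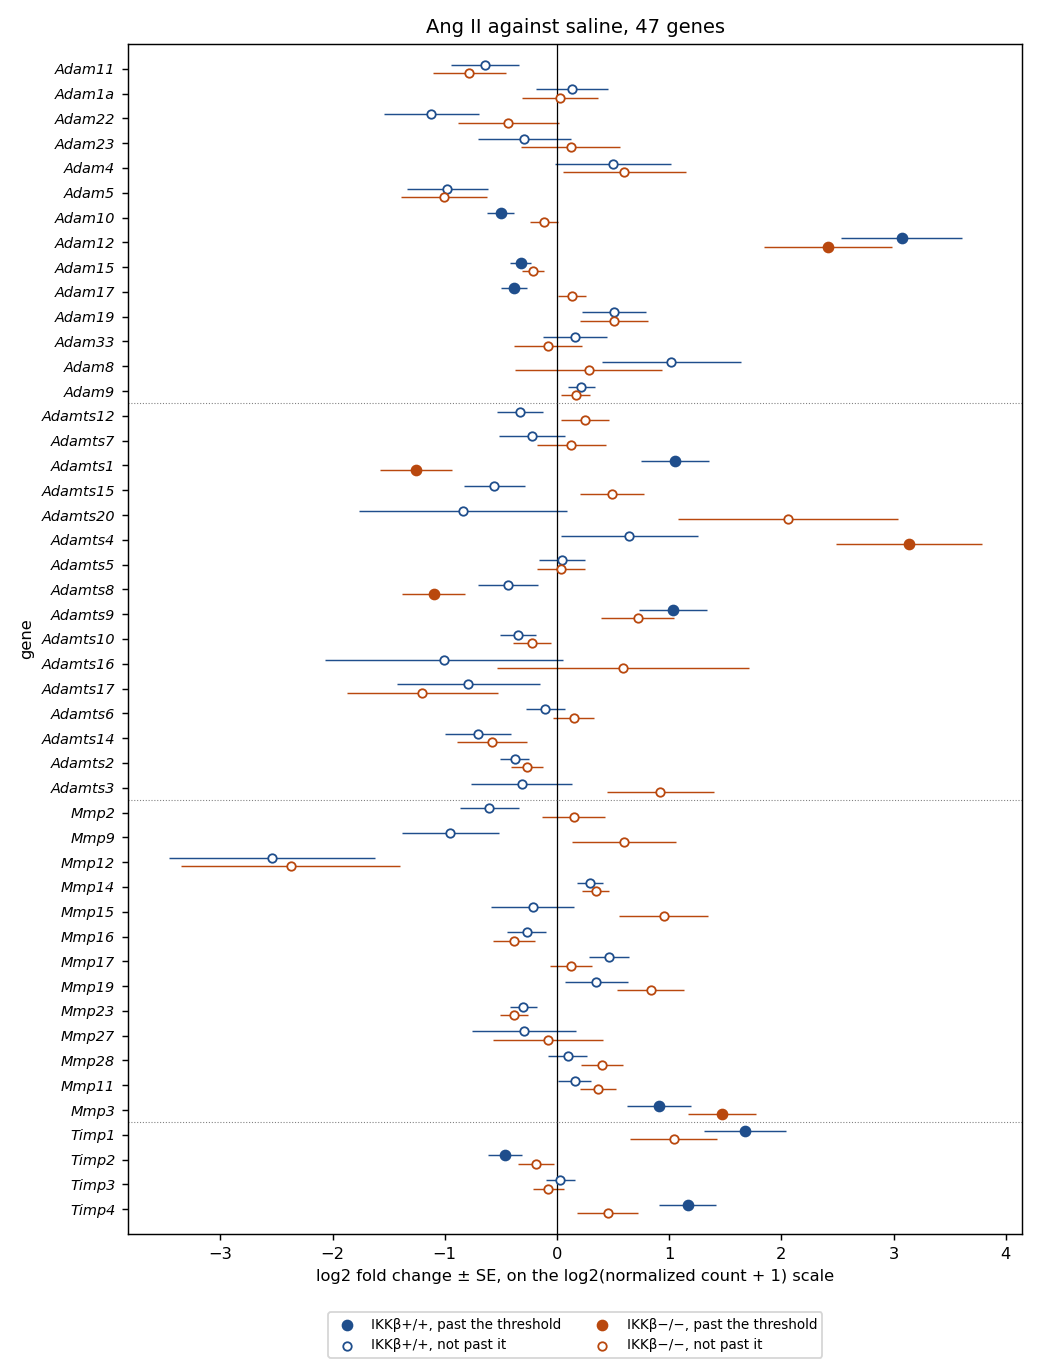
Log2 fold change of Ang II against saline (horizontal axis, ± SE, log2(normalized count + 1) scale) for each of the 47 genes, with IKKβ+/+ in blue and IKKβ-/- in orange and filled points for calls past the threshold. Adam12 (3.07 and 2.41) and Mmp3 (0.91 and 1.47) lie right of 0 and are filled in both genotypes, and Adamts1 lies at 1.05 in IKKβ+/+ and at -1.25 in IKKβ-/- mice.

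Adam12 (ENSMUSG00000054555.11, GRCm38 chromosome 7, 133883199 to 134232146) encodes a membrane proteinase known to shed HB-EGF, a ligand of the EGF receptor. In IKKβ+/+ mice it had 45.3, 11.1, 29.1, 17.1 and 27.1 normalized counts with saline and 273, 138, 84.5, 524 and 211 with Ang II. Every Ang II-treated mouse was above every saline-infused mouse, and X2358 was the highest. The rise was 8.41-fold (log2 fold change 3.07 ± 0.54 SE, adjusted p = 0.0049, limma), and it held without each mouse in turn. In IKKβ-/- mice Adam12 had 2.90, 6.32, 19.8 and 11.6 with saline and 60.1, 16.7, 109, 61.0 and 39.9 with Ang II. Only X2383, with 16.7, lay within the range of the saline-infused mice. This rise was 5.33-fold (log2 2.41 ± 0.57, adjusted p = 0.026, limma). The effects in the 2 genotypes differed by -0.66 ± 0.78 on the log2 scale (adjusted p = 0.76 for the difference, limma). Hbegf itself, from the list of shed ligands and receptors, rose in IKKβ+/+ mice by 1.01 on the log2 scale (adjusted p = 0.096, limma). In IKKβ-/- mice 0 of the 24 genes of that list tested were called higher, and the highest log2 fold change among them was 0.48.

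Timp1 (ENSMUSG00000001131.11, chromosome X, 20870166 to 20874735) encodes a secreted inhibitor that is known as inducible. In IKKβ+/+ mice it had 314, 358, 296, 349 and 331 normalized counts with saline, a narrow range, and 1444, 420, 777, 2861 and 974 with Ang II. All Ang II-treated mice were above all saline-infused mice, and ranged more widely among themselves. The rise was 3.21-fold (log2 1.68 ± 0.37 SE, adjusted p = 0.015, limma) and held without each mouse. In IKKβ-/- mice Timp1 had 406, 313, 207 and 262 with saline and 883, 300.0, 782, 731 and 486 with Ang II, with X2383 inside the saline range. The log2 fold change there was 1.04 ± 0.39 (adjusted p = 0.16, limma), and DESeq2 gave an adjusted p of 0.059. The difference between genotypes was -0.64 ± 0.53 (adjusted p = 0.65, limma).

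Timp4, an inhibitor known from heart and vessels, had 470, 287, 193, 234 and 285 normalized counts with saline and 864, 463, 468, 685 and 768 with Ang II in IKKβ+/+ mice. The groups overlapped by X2370 alone, the highest saline-infused mouse. It rose 2.24-fold (log2 1.16 ± 0.25 SE, adjusted p = 0.015, limma). In IKKβ-/- mice it had 303, 451, 454 and 599 with saline and 945, 688, 402, 618 and 486 with Ang II, overlapping groups, with a log2 fold change of 0.45 ± 0.27 (adjusted p = 0.40, limma). Timp2, which blocks Mmp enzymes and also takes part in the activation of pro-Mmp2 at the cell surface, went the other way. It had 18610 ± 1309 normalized counts (SD, n = 5) with saline and 13685 ± 2726 (SD, n = 5) with Ang II in IKKβ+/+ mice, a fall of 0.47 on the log2 scale (adjusted p = 0.085, limma). The call was lost without each of X2350, X2358, X2370, X2372, X2373, X2376, X2378 or X2401 (adjusted p up to 0.25). Timp3, which binds to the matrix, had 28012 ± 2734 and 28605 ± 2889, a log2 fold change of 0.03 ± 0.13 (SE, adjusted p = 0.93, limma). Timp1, Timp3 and Timp4 lie inside the synapsin genes Syn1, Syn3 and Syn2 on the opposite strand, whose mean normalized counts were 35.8, 226 and 126.5. The study's methods call the libraries stranded, but do not state whether the read counts used the strand.

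Adamts1 (ENSMUSG00000022893.14, chromosome 16, 85793827 to 85803113), which cuts versican and aggrecan, had 2910, 3811, 5511, 3894 and 2920 normalized counts with saline and 9867, 5946, 4952, 13102 and 7045 with Ang II in IKKβ+/+ mice. Of the Ang II-treated mice, X2356 alone was below the highest saline-infused mouse. The rise was 2.08-fold (log2 1.05 ± 0.30 SE, adjusted p = 0.051, limma), and the call was lost without X2350, X2358, X2370 or X2378 (adjusted p 0.11 to 0.16). In IKKβ-/- mice the order was turned. Adamts1 had 11206, 8168, 4821 and 13324 with saline and 5408, 5225, 3773, 2603 and 2402 with Ang II. Of the saline-infused mice, only X2406 (4821) was within the range of the treated ones. It fell by 1.25 ± 0.32 on the log2 scale (adjusted p = 0.038, limma), a call that was lost without X2401 (adjusted p = 0.12).

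The saline-infused IKKβ-/- mice had 9380 ± 3703 normalized counts of Adamts1 (SD, n = 4), 2.37-fold above the 3809 ± 1061 (SD, n = 5) of saline-infused IKKβ+/+ mice (log2 1.24 ± 0.32 SE, adjusted p = 0.057, limma). That call was lost without X2370, X2401 or X2403 (adjusted p up to 0.13). With Ang II the IKKβ-/- mice had 3882 ± 1412 (SD, n = 5) and the IKKβ+/+ mice 8182 ± 3308 (SD, n = 5). The Ang II effects differed between genotypes by -2.31 ± 0.44 on the log2 scale (95% interval -3.22 to -1.39, unadjusted p = 3.8e-05, adjusted p = 0.21, limma). This was the smallest unadjusted p of all 14845 genes for the difference, but 0 genes passed the threshold. The edgeR quasi-likelihood test gave an adjusted p of 0.12 and DESeq2 gave 0.000136. Without X2356 or X2406 the adjusted p was 0.039 or 0.029 (limma). As all 4 of these contrasts share groups, they are views of the same 19 values.

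Adamts9, a further versican-cleaving enzyme, had 546, 489, 533, 385 and 352 normalized counts with saline and 2280, 827, 520, 909 and 776 with Ang II in IKKβ+/+ mice. X2350 was far above the others. The rise was 2.04-fold (log2 1.03 ± 0.30 SE, adjusted p = 0.057, limma) and was lost without X2350, X2358, X2376 or X2378, with a log2 fold change of 0.71 and an adjusted p of 0.16 without X2350. Mmp3 (ENSMUSG00000043613.8, chromosome 9, 7445822 to 7455975) had 1349, 2228, 2454, 1350 and 2234 with saline and 2309, 3034, 4462, 4304 and 3903 with Ang II. Only X2350 lay within the saline range. It rose 1.88-fold (log2 0.91 ± 0.29, adjusted p = 0.073, limma), and the call was lost without X2356, X2358, X2359, X2370, X2376 or X2378 (adjusted p up to 0.18).

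Adam10 and Adam17, the main sheddases for Notch and for TNF, were lower with Ang II in IKKβ+/+ mice. Adam10 had 2142, 2226, 2432, 2774 and 2219 normalized counts with saline and 1287, 1920, 1719, 1622 and 1808 with Ang II, without overlap, and fell by 0.50 ± 0.12 on the log2 scale (adjusted p = 0.021, limma), without loss of the call when any mouse was left out. Adam17 fell by 0.38 ± 0.12 (adjusted p = 0.068, limma), from 1066 ± 53.5 to 825 ± 121 (SD, n = 5 each), and Adam15, an ADAM of the vessel wall, by 0.32 (adjusted p = 0.054, limma). Both Adam17 and Adam15 lost the call without X2358, X2372 or X2373, and Adam17 also without X2350, X2370, X2376 or X2378 (adjusted p up to 0.20). Of the partners of these sheddases, Tspan14, which helps Adam10 mature, fell by 0.55 (adjusted p = 0.046, limma). Notch1 fell by 0.58 (adjusted p = 0.086) and the Notch ligand Dll1 by 1.74 (adjusted p = 0.034, limma).

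The gelatinases did not pass the threshold with all mice. Mmp2 had 4286 ± 474 normalized counts (SD, n = 5) with saline and 2919 ± 882 (SD, n = 5) with Ang II in IKKβ+/+ mice, a log2 fold change of -0.60 ± 0.26 (adjusted p = 0.20, limma). Mmp9 had 101 ± 34.5 and 62.5 ± 45.4, or -0.95 ± 0.44 on the log2 scale (adjusted p = 0.22, limma), and passed without X2359 (-1.28, adjusted p = 0.093). Mmp14, the membrane-type enzyme that activates pro-Mmp2, had 1933 ± 304 and 2355 ± 187, a log2 fold change of 0.30 ± 0.11 (adjusted p = 0.14, limma). The count of 10 calls became 6 without X2350, 4 without X2358, 6 without X2376 and 5 without X2378. In these mice 5 of 6 smooth muscle markers were above 0 with Ang II, with a median log2 fold change of 0.325 and a lowest of -0.192. Of them Cnn1 and Tagln were called, at 0.82 and 0.67 (adjusted p = 0.030 and 0.065, limma). The fibroblast marker Lum fell by 1.27 (adjusted p = 0.076, limma), and 6 of 6 fibroblast markers were below 0. Fibroblast marker sums were 108815 to 154348 with saline and 77541 to 135535 with Ang II. Macrophage markers were below 0 in 6 of 6 genes, with sums of 3767 to 5354 and 2203 to 4864, and endothelial markers in 4 of 5, with sums of 18470 to 32586 and 10523 to 20909. All 3 striated muscle markers tested were above 0, of which Ckm was called (log2 2.93, adjusted p = 0.000988, limma), with sums of 31.9 to 167.7 and 136 to 474.8. The part of these markers in the results was not tested.

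**Figure D3:**
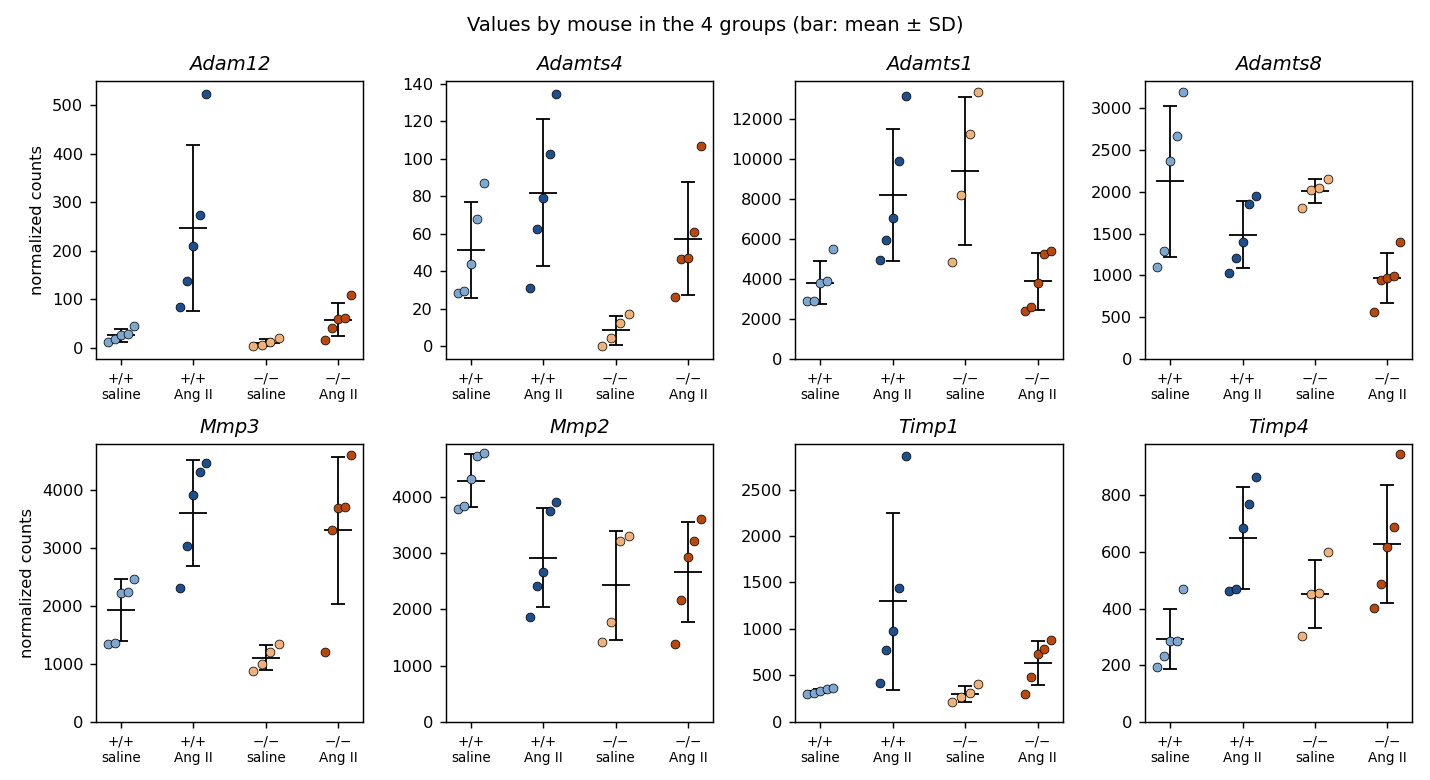
Normalized counts (vertical axes, linear) of 8 genes in each mouse of the 4 groups, with the mean ± SD as bars. Adam12 and Timp1 spread widely with Ang II in IKKβ+/+ mice, and Adamts1 is high in saline-infused IKKβ-/- mice (4821 to 13324) and low in Ang II-treated ones (2402 to 5408), the reverse of IKKβ+/+ mice.

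Ang II against saline in IKKβ-/- mice asked the same of a wall with the deletion directed at smooth muscle cells. Here 3 of the 47 genes rose, Adamts4, Adam12 and Mmp3, and 2 fell, Adamts1 and Adamts8. These were 6.38% and 4.26% of the 47 genes, and 2.59% of all genes were called higher and 2.69% lower. The median log2 fold change was 0.14 and that of all genes -0.003, and 18 of the 47 were below 0. For 2 of the 47 the groups did not overlap, where 5.29% of all genes did not.

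Adamts4 (ENSMUSG00000006403.13, chromosome 1, 171250421 to 171260637) encodes aggrecanase-1, which cuts aggrecan and versican. It had 12.5, 4.21, 0 and 17.4 normalized counts in saline-infused and 47.1, 26.2, 46.5, 61.0 and 106.7 in Ang II-treated IKKβ-/- mice, without overlap. The rise was 8.81-fold on the log2(normalized count + 1) scale (log2 3.14 ± 0.65 SE, adjusted p = 0.015, limma), and 2.63 on the log2 scale by DESeq2 (adjusted p = 0.000256). It was kept without each mouse, with log2 fold changes of 2.28 to 3.68. In IKKβ+/+ mice Adamts4 had 67.9, 87.3, 44.1, 28.5 and 29.5 with saline and 79.3, 30.9, 62.5, 135 and 102 with Ang II. These groups overlapped and the log2 fold change was 0.64 ± 0.61 (adjusted p = 0.60, limma). The difference between the effects was 2.50 ± 0.89 (unadjusted p = 0.011, adjusted p = 0.33, limma).

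Mmp3 had 1345, 871, 1002 and 1205 normalized counts with saline and 1209, 3698, 3681, 4608 and 3305 with Ang II in IKKβ-/- mice. All treated mice except X2380 were far above the saline-infused ones. It rose 2.77-fold (log2 1.47 ± 0.30 SE, adjusted p = 0.015, limma) and was kept without each mouse. Adamts8, an ADAMTS enzyme that can cut aggrecan, had 2025, 2040, 2149 and 1805 with saline and 1395, 987, 560.0, 963 and 950 with Ang II. The groups did not overlap, and it fell by 1.10 ± 0.28 (adjusted p = 0.039, limma), lost without X2384 or X2406 (adjusted p at most 0.104). In IKKβ+/+ mice the value for Adamts8 was -0.44 ± 0.27 on the log2 scale (adjusted p = 0.37, limma). The gelatinases lay on the other side of 0 than in IKKβ+/+ mice, Mmp2 at 0.15 ± 0.28 (adjusted p = 0.84) and Mmp9 at 0.60 ± 0.46 (adjusted p = 0.55), and the differences between genotypes were 0.75 ± 0.38 and 1.55 ± 0.64 (adjusted p = 0.47 and 0.38, limma). Mmp14 was at 0.35 ± 0.12 (adjusted p = 0.13, limma).

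The count of 5 calls became 8 without X2383, 10 by DESeq2, which also called Timp1, Mmp14, Mmp19, Mmp23 and Mmp12, and 2 without X2384 and X2385 together, a setting chosen after seeing the data. Adipocyte markers rose in this comparison, 4 of the 4 tested, with log2 fold changes of 4.04 to 4.89 and sums that did not overlap. With X2384 and X2385, the mice with the highest sums, left out, the calls of 4 genes were lost, with log2 fold changes of -1.10 for Adamts1 (adjusted p = 0.18), -0.87 for Adamts8 (adjusted p = 0.19), 1.17 for Mmp3 (adjusted p = 0.11) and 1.93 for Adam12 (adjusted p = 0.17), and Adamts4 kept its call (limma). All 5 genes kept their direction. The treated mice that stayed were fewer, X2380, X2383 and X2386, and had adipocyte sums of 2891, 1195 and 4373, against at most 611 with saline. The part of fat or of the smaller group in the lost calls was not tested.

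The test of the difference between the Ang II effects of the 2 genotypes called 0 of 47 genes and 0% of all genes (limma), 0 by edgeR and 1, Adamts1, by DESeq2. At an unadjusted p under 0.05 there were 8 of 47 genes, beside 11.1% of all genes. They were Adamts1, at -2.31, and 7 genes above 0: Adamts20 (2.90), Adamts4 (2.50), Mmp9 (1.55), Mmp15 (1.17), Adamts15 (1.05), Adam17 (0.52) and Adam10 (0.39). An effect called in IKKβ+/+ mice alone, such as that of Timp4 (difference -0.71 ± 0.37, adjusted p = 0.47) or of Adam10 (0.39 ± 0.17, adjusted p = 0.42, limma), was therefore not shown to differ between genotypes.

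IKKβ-/- against IKKβ+/+ mice with saline asked what the deletion did before any Ang II. Of the 47 genes 6 were lower in IKKβ-/- mice, Adamts4, Adam17, Adamts12, Adam19, Adam11 and Mmp2, and Adamts1 was higher. These were 12.8% lower and 2.13% higher, and among all genes 2.07% were called lower and 3.4% higher. The median log2 difference of the 47 genes was -0.38 and that of all genes -0.02, and 36 of the 47 were below 0. The groups did not overlap for 10 of the 47, where 8.76% of all genes did not.

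Adamts4 showed the largest difference, with 0 to 17.4 normalized counts in the 4 IKKβ-/- mice and 28.5 to 87.3 in the 5 IKKβ+/+ mice, without overlap (log2 -2.99 ± 0.65 SE, adjusted p = 0.037, limma). It was lost without X2403 or X2406 (adjusted p up to 0.13), and without X2406, the mouse at 0, the difference was -2.13. Adam17 had 837, 636, 677 and 797 against 1056, 1112, 1127, 1036 and 998, again without overlap, a difference of -0.54 ± 0.12 (adjusted p = 0.048, limma) that was lost without X2373, X2403 or X2406. Mmp2 had 3211, 1772, 1423 and 3299 against 4775, 3830, 4727, 3779 and 4320. All IKKβ-/- mice were lower, and the log2 difference was -0.91 ± 0.28 (adjusted p = 0.090, limma). Mmp2 lost the call without X2352, X2370, X2372, X2373, X2376, X2378, X2403 or X2406 (adjusted p up to 0.30) and by edgeR (adjusted p = 0.12).

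Adam19, a membrane sheddase of neuregulin known from heart development, had 246, 93.8, 220 and 273 in IKKβ-/- and 480, 386, 390, 317 and 445 in IKKβ+/+ mice with saline. The groups did not overlap and differed by -1.05 on the log2 scale (adjusted p = 0.078, limma). Adam11, an ADAM without catalytic activity that is best known from neurons, had 269, 225, 409 and 350 against 505, 649, 617, 806 and 686, also without overlap (log2 -1.08, adjusted p = 0.083, limma). Both calls were lost without X2370, X2372, X2373, X2376, X2378, X2401, X2403 or X2406 (adjusted p up to 0.23). Adamts12, which cuts cartilage oligomeric matrix protein (COMP), was lower by 0.77 ± 0.22 (adjusted p = 0.069, limma), a call lost without X2370, X2373, X2376, X2403 or X2406. The Timp genes passed in neither direction by limma, with log2 differences of -0.19 for Timp1, -0.42 for Timp2, -0.04 for Timp3 and 0.64 for Timp4, and DESeq2 called Timp2 lower (adjusted p = 0.082).

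The count of 7 calls became 0 without X2403, 1 without X2406, 2 without X2370 or X2373, 3 without X2376, 4 without X2372, X2378 or X2401, 11 without X2380, and 11 by DESeq2. Macrophage markers were lower in this comparison as well: 6 of 6 were below 0 in IKKβ-/- mice, and Adgre1 and Cd68 were called lower. Their sums were at most 3307 against at least 3767, without overlap. All 6 fibroblast markers were also below 0, with sums of 92807 to 124317 against 108815 to 154348 and 0 calls, and all 5 endothelial markers were below 0. The 4 adipocyte markers tested had the lowest median, at log2 differences of -2.45 to -2.11 with 0 calls, and overlapping sums of 158.5 to 611 against 166.7 to 7537. Neutrophil markers were below 0 in 4 of 4, red cell markers in 3 of 3 and brown fat markers in 2 of 2. Smooth muscle markers were above 0 in 5 of 6 genes, striated muscle markers in 3 of 3 and neuronal and glial markers in 2 of 3. The part of these markers in the lower values was not tested. Among activators and cofactors of these enzymes, 4 of 15 were called lower and 0 higher: Furin, which removes the propeptide of many ADAM and Mmp precursors (-0.53, adjusted p = 0.056), the related convertase Pcsk6 (-0.69, adjusted p = 0.072), the plasminogen activator Plat (-1.37, adjusted p = 0.048) and Tspan14 (-0.55, adjusted p = 0.079, limma).

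**Figure D4:**
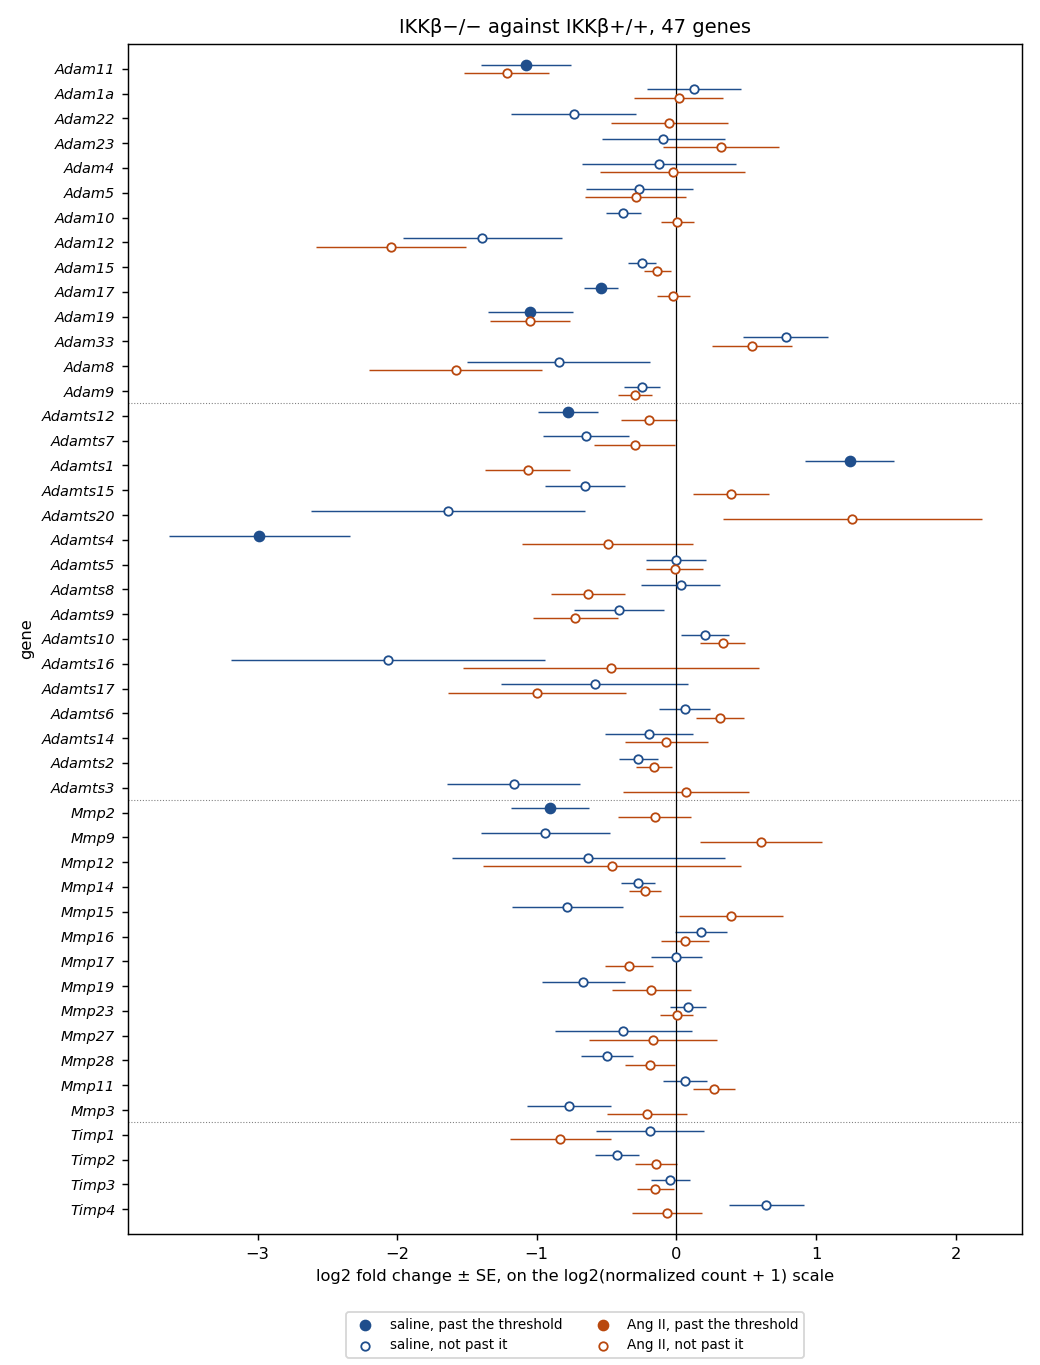
Log2 difference of IKKβ-/- against IKKβ+/+ mice (horizontal axis, ± SE, log2(normalized count + 1) scale) for each of the 47 genes, with saline in blue and Ang II in orange and filled points for calls past the threshold. With saline 36 of 47 genes lie left of 0, Adamts4 is at -2.99 and Adamts1 at 1.24, and with Ang II no point is filled.

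With Ang II, IKKβ-/- against IKKβ+/+ mice gave calls for 0 of the 47 genes by limma and by edgeR, and for 4, Adam12, Adam19, Adamts1 and Adam11, by DESeq2. All genes together gave 0.0202% higher and 0.108% lower calls. At an unadjusted p under 0.05 there were 9 of 47, beside 14.3% of all genes. The median log2 difference was -0.16, against -0.01 for all genes, and 33 of 47 were below 0. The groups overlapped for all 47, and 1.54% of all genes did not overlap. The smallest p-values belonged to Adam11, Adam12 and Adam19. Adam11 had 465, 360, 394, 320 and 572 normalized counts in IKKβ+/+ and 155, 506, 95.1, 137 and 171 in IKKβ-/- mice, where X2383 stood apart (log2 -1.22 ± 0.30 SE, adjusted p = 0.15, limma). Adam12 differed by -2.05 ± 0.54 (adjusted p = 0.16) and Adam19 by -1.05 ± 0.29 (adjusted p = 0.17, limma). Without X2356 Adam11, Adam12, Adam19 and Adamts1 passed, without X2380 Adam12, Adamts1 and Adam8, and without X2383 Adam11 alone (adjusted p = 0.0035). Adam8, a leukocyte sheddase, is named here after its values were seen.

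Over both genotypes, 8 of the 47 genes rose with Ang II and 10 fell, 17% and 21.3%, with 5.66% and 7.05% among all genes. Adam12 rose most (log2 2.74 ± 0.39 SE, adjusted p = 0.000365, limma), followed by Adamts4 (1.89), Timp1 (1.36), Mmp3 (1.19), Adamts9 (0.88), Timp4 (0.81), Mmp19 (0.59) and Mmp14 (0.32). Mmp12, the macrophage elastase, fell by 2.46 ± 0.67 (adjusted p = 0.027, limma). It had 12.8 to 137 normalized counts in saline-infused and 0 to 32.1 in Ang II-treated IKKβ+/+ mice, and 7.26 to 91.7 and 0 to 9.63 in IKKβ-/- mice, few reads with overlapping groups. Adam5 fell by 0.99 and Adamts8 by 0.77, and the procollagen-processing enzymes Adamts2 and Adamts14 fell by 0.32 and 0.64, with Col1a2 and Col3a1, which encode fibrillar collagens, lower by 0.44 and 0.51 (adjusted p = 0.085 and 0.099, limma). The other falls were Adam11 (-0.71), Mmp23 (-0.34), Timp2 (-0.33), Adam10 (-0.31) and Adam15 (-0.27). Calls of Timp2, Adam11, Mmp19, Adam15 and Adamts14 were lost in 8, 1, 10, 10 and 7 of the 19 fits that left out a mouse, in the case of Adam15 because its fold change fell under 1.2. The other 13 kept theirs in all 19.

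Over both treatments, 7 of the 47 genes were lower in IKKβ-/- mice and Adam33 was higher, 14.9% and 2.13%, with 3.45% and 3.79% among all genes. The median log2 difference was -0.27, against -0.02 for all genes, and 37 of the 47 were below 0. The calls of Adamts4 (-1.74 ± 0.45 SE, adjusted p = 0.044), Adam12 (-1.72 ± 0.39, adjusted p = 0.030), Adam11 (-1.15 ± 0.22, adjusted p = 0.017) and Adam19 (-1.05 ± 0.21, adjusted p = 0.017, limma) were kept without each mouse, although that of Adamts4 was lost without X2384 and X2385 together (adjusted p = 0.11). Those of Adamts12, Adam17, Adam9 and Adam33 were lost in 10, 12, 14 and 9 of the 19 fits that left out a mouse, and the count of 8 calls was 4 without X2358, X2359, X2370, X2373, X2385 or X2406, 5 without X2352, X2376, X2384 or X2403, and 3 without X2384 and X2385 together. Adam33 had 301 to 581 normalized counts in saline-infused IKKβ+/+, 257 to 581 in Ang II-treated IKKβ+/+, 430.3 to 1187 in saline-infused IKKβ-/- and 514 to 1196 in Ang II-treated IKKβ-/- mice.

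**Figure D5:**
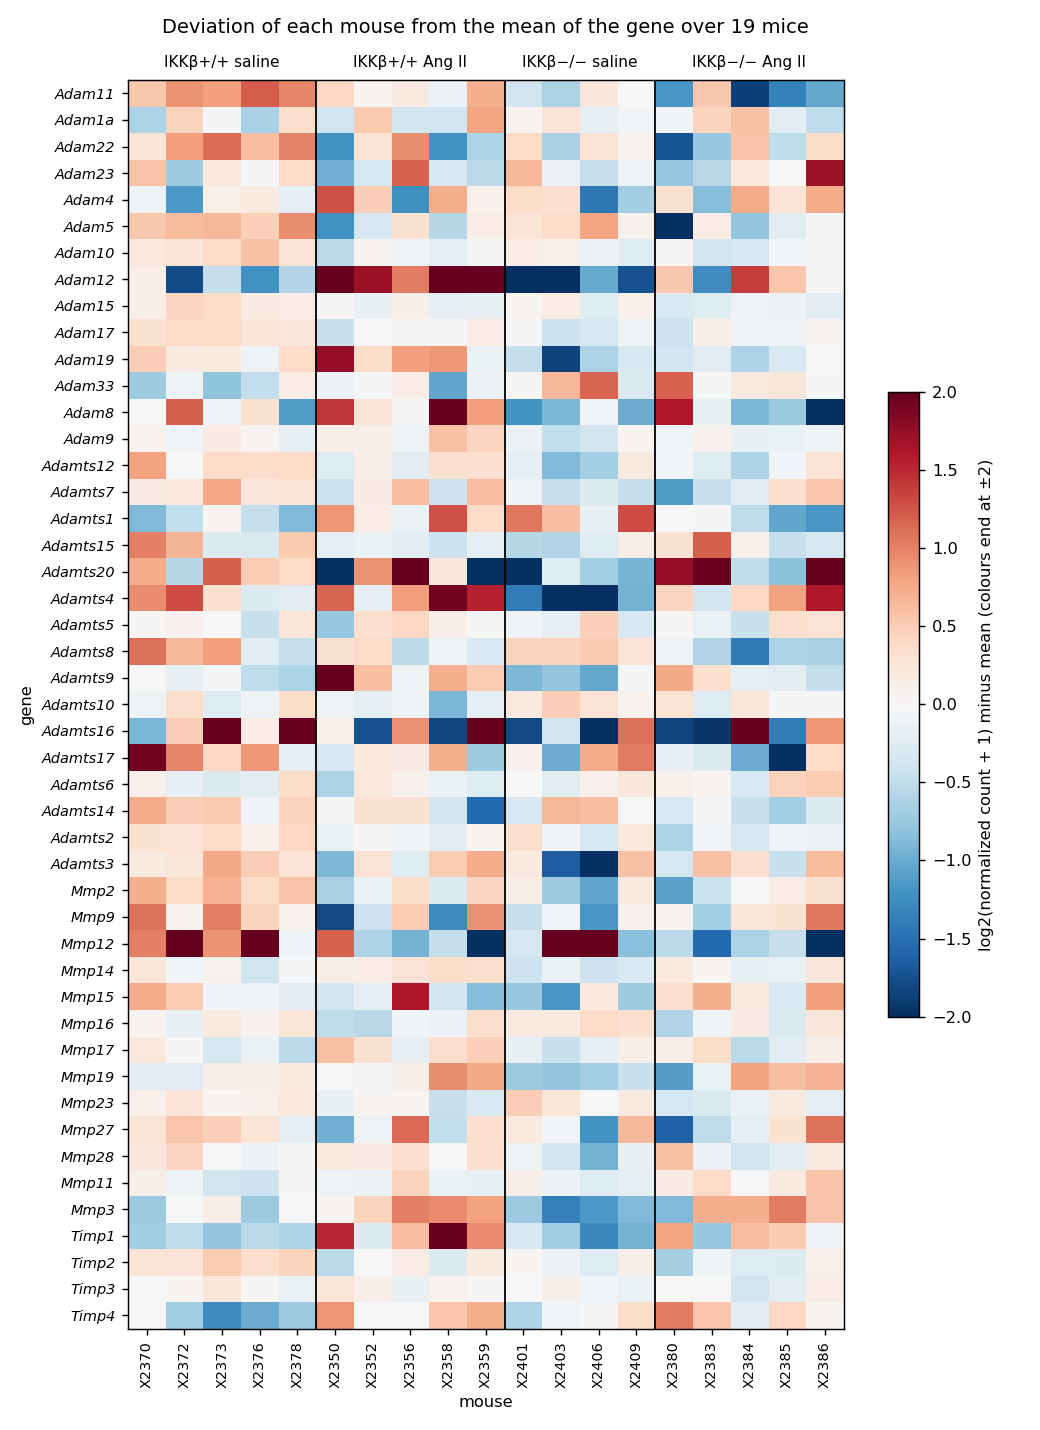
Colour gives the log2(normalized count + 1) of each mouse (columns, by group) minus the mean of the gene over 19 mice (rows, 47 genes), with colours ending at ±2. Adam12 is red in all 5 Ang II-treated IKKβ+/+ mice, Adamts4 blue in all 4 saline-infused IKKβ-/- mice, and Timp3 hardly changes colour.

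Genes that work with these enzymes were described from lists chosen with earlier results of these data known. Of all genes tested, Ang II gave 4.33% higher and 4.33% lower calls in IKKβ+/+ mice, and 2.59% and 2.69% in IKKβ-/- mice. The genotypes with saline gave 3.4% higher and 2.07% lower calls. Of 15 activators and cofactors tested, Plaur, the urokinase receptor that focuses plasmin formation at the cell surface, rose with Ang II in IKKβ+/+ mice (log2 1.59, adjusted p = 0.0099, limma) and Pcsk5 and Tspan14 fell, and 0 passed in IKKβ-/- mice. Of 6 ADAMTS-like proteins, which resemble ADAMTS enzymes without the proteinase part, Adamtsl2 rose with Ang II in both genotypes (1.06 and 1.44, adjusted p = 0.065 and 0.028), and Adamtsl5 fell in IKKβ-/- mice (-0.68, adjusted p = 0.0097, limma). Of 16 substrates, Thbs2 fell in both genotypes (-0.70 and -0.82, adjusted p = 0.023 and 0.017, limma) and 0 rose. Thbs2 encodes thrombospondin-2, which is known to promote the uptake of Mmp2. With saline, 16 of 16 substrate genes were below 0 in IKKβ-/- against IKKβ+/+ mice, with a median of -0.33 and 0 calls. Of all 14845 genes 7778 were below 0, with a median of -0.02. Among 6 further inhibitors, Serpine2, which blocks plasmin and thrombin, fell with Ang II in both genotypes (-0.63 and -0.64, adjusted p = 0.030 and 0.041, limma). Of 24 shed ligands and receptors, 2 rose (Hbegf and Sdc4) and 3 fell (Dll1, Notch1 and Sdc1) with Ang II in IKKβ+/+ mice, and Sdc1 fell in IKKβ-/- mice as well. With saline, Tnfrsf1b, a TNF receptor shed by Adam17, and Kl were lower in IKKβ-/- mice (-0.74 and -1.76, adjusted p = 0.074 and 0.099, limma).

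The remaining 22 genes passed in none of the 7 comparisons by limma with all 19 mice, nor by edgeR. DESeq2 called 2 of them, Mmp17 with Ang II in IKKβ+/+ mice and Adam8 over both treatments (-1.25, adjusted p = 0.083), and 8 of the 22 passed in at least 1 comparison when a mouse was left out. Among the 22 were Adamts5, the other main aggrecanase, with 1959 ± 324, 2075 ± 572, 1978 ± 511 and 2018 ± 423 normalized counts (SD) in saline-infused and Ang II-treated IKKβ+/+ and saline-infused and Ang II-treated IKKβ-/- mice. Its adjusted p with Ang II was 0.93 in IKKβ+/+ and 0.96 in IKKβ-/- mice (limma). It lies next to Adamts1 on chromosome 16 (85856173 to 85901828). Mmp17, a membrane-type enzyme known in vascular smooth muscle, had 2305 ± 455, 3180 ± 590, 2293 ± 375 and 2535 ± 587, with a value of 0.46 ± 0.17 on the log2 scale for Ang II in IKKβ+/+ mice, short of the threshold by limma (adjusted p = 0.13) and past it by DESeq2 (adjusted p = 0.083) and without X2356 (0.59, adjusted p = 0.042, limma). The lowest of the 22, Adamts20, Adamts16 and Adam4, had mean normalized counts of 11.4, 13.6 and 7.43 over the 19 mice.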

How the data were processed

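Libraries were poly(A)-selected, stranded and read single-end. Per the study's methods and the submitters' processing notes, the authors trimmed reads with Trimmomatic 0.35, aligned them with STAR 2.7.1a to GRCm38 with Gencode M25, and normalized with DESeq2 1.30.1. RSEM is also named, with no version given. The deposited table holds 1 signal per gene and mouse, the read count divided by a size factor of the authors, here called a normalized count. Whole reads were recovered from 100% of values (tolerance 0.05 reads), 11382573 to 19906694 per mouse.

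Of 20408 genes, 14845 reached 10 normalized counts in 4 or more mice. They were fitted with limma 3.58.1 (R 4.3.3) on log2(normalized count + 1), 1 mean per group over 19 mice, with a trended prior and Benjamini-Hochberg adjustment over all of them. The added 1 draws the fold changes of low genes toward 0, yet averaging on the log scale also moves them, and they lay on both sides of those from read counts: the Ang II effect on Adamts4 in IKKβ-/- mice was 3.14 here and 2.63 by DESeq2, and that on Adam12 in IKKβ+/+ mice 3.07 and 3.24. The fit was tested on simulated data of the IKKβ+/+ comparison with 14845 genes. It called 66% of genes changed by 1 and 89% of those changed by 2 on the log2 scale. It also called 19 genes that had been left unchanged. Alternatives were edgeR 4.0.16 and DESeq2 1.42.0 on recovered reads, TMM scaling, a pseudocount of 4, no filter, an adjusted p below 0.05, and leaving out each mouse. Leaving out X2384 and X2385 together was chosen after seeing the data. Levels per kb used exon lengths, and promoters came from RefSeq (GRCm38.p6). Tables were handled with Python 3.11.15 and pandas 2.3.3.

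Genes named with values are those past the threshold in any of 7 comparisons, Adam12, Adamts4, the Timp genes, Mmp2, Mmp9 and Mmp14, and the 3 with the smallest p where fewer than 3 passed. Values of others (Adamts5, Mmp17, Adam8, Adamts15, Mmp15, and the most and least abundant genes) were given after they were seen. The members and lists were chosen with earlier results of these data known.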

Additional observations from a re-analysis of the deposited data

Results flagged for a closer look

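In 3 of the 108 gene and group combinations tested, 1 mouse lay far from the others of its group, where chance gives about 1 in 20. Adam11 had 506.4 normalized counts in X2383 of the Ang II-treated IKKβ-/- mice, with 170.9 in the next mouse. Adam33 had 1196 in X2380 of the same group, with 623 next. Adamts9 had 2280 in X2350 of the Ang II-treated IKKβ+/+ mice, with 908.6 next.

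Among the 8 rows below the filter on low values, 3 genes reached 10 normalized counts in an Ang II-treated mouse that was above all saline-infused mice. Mmp8, the neutrophil collagenase, had 21.35 in X2352 and 10.93 in X2359 (IKKβ+/+) and 37.89 in X2380 (IKKβ-/-), against at most 9.494 with saline. X2352 and X2380 also had the highest sums of neutrophil markers, 334.1 and 698.7, and of red cell markers, 2990 and 4111, in their groups. X2359 had sums of 251.5 and 174.9. The part of these cells was not tested. Adam32 had 19.28 in X2350 and 10.97 in X2356, against at most 8.767 with saline. Adamts18 had 15.42 in X2386, against at most 1.762. Adam3 and Mmp25 also had treated mice above all saline-infused mice, at up to 8.599 and 4.817. Adam21, Mmp13 and Mmp24 were instead highest in a saline-infused mouse, at 4.747, 11.16 and 15.8. Mmp13 had 6.168 to 11.16 in saline-infused and 0 to 5.733 in Ang II-treated IKKβ+/+ mice, without overlap, and overlapping groups in IKKβ-/- mice.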

How the results depend on the processing

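Of 48 calls, all 48 were kept by DESeq2, with TMM scaling and with a pseudocount of 4. With edgeR 2 were lost, without a filter 3, and at an adjusted p below 0.05 there were 18 lost. Leaving out 1 mouse gave 912 fits of these calls, of which 759 kept and 153 lost the call, and X2384 and X2385 left out together lost 13. No call changed direction under any of these. The counts of calls ranged, over the fits that left out 1 mouse, from 4 to 14 for Ang II in IKKβ+/+ mice, 4 to 8 for Ang II in IKKβ-/- mice, 0 to 1 for the difference, 0 to 11 for genotype with saline, 0 to 4 for genotype with Ang II and 4 to 12 for genotype over both treatments. At an adjusted p below 0.05, Ang II in IKKβ+/+ mice gave 4 calls, genotype with saline 2 and genotype over both treatments 4, by the stricter limit itself. DESeq2 gave 10 for Ang II in IKKβ-/- mice, 1 for the difference, 11 for genotype with saline and 4 for genotype with Ang II. For Ang II in IKKβ+/+ mice it added Adam5, Adamts2, Mmp12 and Mmp17, and for Ang II over both genotypes Adam19. For genotype over both treatments it added Adam8, Adamts9, Mmp2 and Timp2. Without X2384 and X2385 there were 2 for Ang II in IKKβ-/- mice and 3 for genotype over both treatments, and the cause was not tested. No paired analysis was possible because the groups share no mouse number. Genes with few reads, such as Adam12 and Adamts4, carry wide errors.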
